A study of Mus musculus with 6 samples.

Results

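The endothelial cells of newborn sciatic nerve were taken from 3 droplet libraries of postnatal day 1 (P1) mice. A droplet counted as endothelial when its barcode had 500 to 5000 detected genes, at least 3 unique molecular identifiers (UMIs, each standing for 1 captured RNA molecule) of Pecam1, Cldn5 and Cdh5 together and at least 1 of Pecam1. It also had to hold at most 2 UMIs of the mural genes Pdgfrb and Rgs5, none of the leukocyte gene Ptprc, none of the Schwann cell gene Sox10 and fewer than 10 of the collagen gene Col1a2. The rule kept 611 of 11735 P1 cells, with 170 of 3495 in replicate 1, 239 of 4197 in replicate 2 and 202 of 4043 in replicate 3, a share of 5.18% ± 0.446 (SD, n = 3 libraries). The members were thus selected on measured UMIs of 8 genes, and differences between these cells and the rest of the nerve, and between groups of these cells, are given as descriptions with no test.

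The mice were P0Cre-/+ : ReYFP Tg/+ : βAct-DsRed Tg/+ animals on the C57bl/6J background at both ages. Cre was driven by a promoter active in Schwann cells and switched on the YFP reporter, while DsRed marked all cells. Nerves were minced and digested with trypsin, collagenase and hyaluronidase without perfusion, DsRed-positive cells were sorted, and at P1 some DsRed-eYFP double positive cells were also removed, so the share of endothelial cells among all P1 cells depends on the sort. Each age had 3 independent Chromium runs with 10x 3' v2 chemistry, each on pooled male and female mice, and the same rule kept 1574 cells at postnatal day 60 (P60).

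Endothelial cells line blood and lymph vessels. In peripheral nerve the capillaries inside the nerve bundles form the blood-nerve barrier, with tight junctions and selective transporters, while vessels of the outer sheath are more permeable. Along the vascular tree, arterial cells are known for Notch signalling, gap junction connexins and elastic fibres, capillary cells for nutrient handling, and venous cells for the receptors that capture leukocytes. In adult nerve the study separated endothelial cells high in Cldn5 from those high in Cd300lg. At P1 it placed the putative endothelial cells in a single cluster. Some of those cells had Cldn5 and some Cd300lg, but the study saw no evident division of the cluster at that age. The questions here are what newborn endothelial cells express, how they vary along these genes, and what differs by P60.

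The P1 libraries held 26685231 to 30334608 UMIs in all, and their endothelial cells held 1435922, 1663141 and 1579033 UMIs. The median endothelial cell had 6892, 5511 and 6221 UMIs and 2514, 2204 and 2371.5 genes in replicates 1, 2 and 3, with 3.88% to 4.37% mitochondrial UMIs. No endothelial barcode was shared between P1 libraries. At P60 the median endothelial cell had 5210.5, 5365.5 and 4020.5 UMIs, and replicate 3 stood apart as the shallowest. Levels are given as CPM, the UMIs of a gene as a share of all UMIs summed over the cells in question, on a scale where that sum is set to 1000000, and were taken per library. A 3' count takes 1 molecule as 1 UMI whatever the length of its gene, and capture differs between genes, so levels were compared between cells and not between genes.

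Endothelial genes differ from the rest of the nerve in RNA, and for a few the promoter letters are shown because ETS family factors, of which Erg, Fli1 and Ets1 were all found here, are known to bind sites with a GGAA core in endothelial genes. The motifs AGGAAG (on the other strand CTTCCT) and CGGAAG (on the other strand CTTCCG) were searched on both strands in the 250 bases before each RefSeq start in GRCm38.p6. They share the letters GGAAG and cannot match at the same place. Of the 30 genes that stood furthest above the other P1 cells, 17 had a promoter in that table, 21 promoters in all. AGGAAG was in 13 of the 21 (61.9%) and in 9686 of all 32851 promoters (29.5%), and CGGAAG was in 2 of the 21 (9.52%) and in 13.6% of all. The 30 genes include Pecam1 and Cldn5, which chose the cells, and without the promoters of rule genes AGGAAG was in 13 of 20. A match is a description of letters and not a bound site. The regions of Tie1, an angiopoietin receptor gene (chr4:118489850-118490099, minus strand), Egfl7, a gene for a secreted endothelial protein (chr2:26580833-26581082, plus strand, the first of 3 starts listed), and Cldn5 (chr16:18776597-18776846, plus strand), in which neither motif occurs, run 5′ to 3′ with the motifs in capitals:
Tie1: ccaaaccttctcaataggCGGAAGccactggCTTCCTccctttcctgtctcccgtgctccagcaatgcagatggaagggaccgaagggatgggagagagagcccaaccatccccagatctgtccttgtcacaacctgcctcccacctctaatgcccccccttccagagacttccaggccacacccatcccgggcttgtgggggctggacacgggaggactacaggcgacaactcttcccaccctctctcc
Egfl7: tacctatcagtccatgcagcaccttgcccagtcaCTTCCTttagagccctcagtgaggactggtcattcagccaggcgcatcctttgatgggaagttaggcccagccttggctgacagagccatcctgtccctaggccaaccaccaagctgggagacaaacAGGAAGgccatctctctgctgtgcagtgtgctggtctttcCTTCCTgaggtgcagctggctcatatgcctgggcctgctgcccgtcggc
Cldn5: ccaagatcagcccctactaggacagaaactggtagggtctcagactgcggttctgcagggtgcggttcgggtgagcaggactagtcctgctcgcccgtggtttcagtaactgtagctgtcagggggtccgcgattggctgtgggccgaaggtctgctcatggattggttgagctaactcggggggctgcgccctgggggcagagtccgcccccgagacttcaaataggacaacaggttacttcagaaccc

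The 6 genes used as markers were first read in every class of P1 cell. Pecam1, an adhesion protein of endothelial contacts (ENSMUSG00000020717, chr11:106654217-106750628 in GRCm38, minus strand), was at 1067, 1037 and 1082 CPM in the endothelial cells of replicates 1, 2 and 3. Cldn5, the claudin of endothelial tight junctions (ENSMUSG00000041378, chr16:18776847-18778262, plus strand), was at 2094, 2249 and 2284 CPM, and Cdh5, which encodes VE-cadherin of adherens junctions (chr8:104101625-104144511, plus strand), at 818, 836 and 861 CPM. These 3 genes chose the cells. The mural, fibroblast, immune and Schwann classes were limited to at most 2 UMIs of these 3 genes together. Low levels of the 3 genes there follow from that choice, and cells with more were left out of these classes. Fibroblasts had at least 10 Col1a2 UMIs, mural cells at least 3 of Pdgfrb and Rgs5, immune cells Ptprc and Schwann cells Sox10. Each class was limited on the markers of the others, but mural cells had no Col1a2 limit. In P1 fibroblasts Pecam1 was at 2.08 ± 0.385 CPM and Cldn5 at 2.98 ± 0.776 CPM (SD, n = 3). Cdh5 stood apart there, at 30.9 ± 0.895 CPM, with a UMI in 18.0% of fibroblasts. After thinning each cell to 2000 UMIs, Cdh5 was found in 79.6% of endothelial cells and 6.88% of fibroblasts.

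The other 3 markers were not in the rule. Fabp4, a carrier of fatty acids (chr3:10204088-10208576, minus strand), was at 6550, 6660 and 6021 CPM. Gpihbp1, which moves lipoprotein lipase to the vessel lumen (chr15:75596628-75599481, plus strand), was at 1760, 1981 and 1801 CPM, and Egfl7 (chr2:26580014-26593120, plus strand, overlapping Mir126a and Gm20532) at 1317, 1393 and 1320 CPM. All 3 libraries were close to each other and far above the other classes. Mural cells, the pericytes and smooth muscle cells of the vessel wall, had 5.50 ± 2.62 CPM of Gpihbp1 and 23.8 ± 0.272 CPM of Egfl7 but 228 ± 56.4 CPM of Fabp4, with a UMI in 32.6% of them. The VEGF receptor gene Kdr was at 379 ± 18.0 CPM in endothelial cells and under 3 CPM in each library of the mural, fibroblast, immune and Schwann classes.

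**Figure D1:**
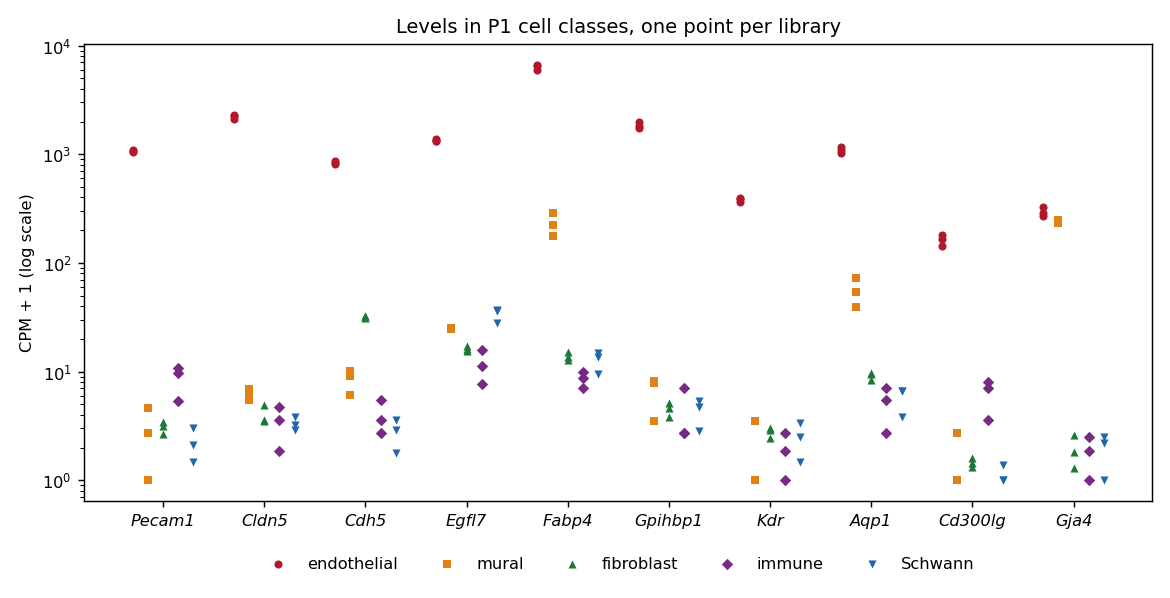
Level of 10 genes (CPM + 1, log scale) in endothelial, mural, fibroblast, immune and Schwann cells at P1, with 1 point per library. The classes other than endothelial were limited to at most 2 UMIs of Pecam1, Cldn5 and Cdh5 together. The 3 endothelial points of each gene lie close together and above the other classes, except for Gja4, where mural cells at 239 ± 6.63 CPM come near the endothelial cells at 294 ± 28.4 CPM.

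RNA of other cell types in these cells was low, as the rule had capped Pdgfrb, Rgs5, Ptprc, Sox10 and Col1a2. The classes set beside them were chosen on the same genes, so these shares do not measure purity apart from the rule. The 10 fibroblast genes summed to 637 to 746 CPM (2.04% to 2.38% of their sum in fibroblasts), the 10 Schwann genes to 695 to 894 CPM (1.28% to 1.64%), the 11 mural genes to 73.1 to 277 CPM (0.887% to 3.39%) and the 12 immune genes to 56.5 to 329 CPM (0.238% to 1.43%). None of the members of these 4 lists was at 0 UMIs. Haemoglobin stood at 4613, 2569 and 13399 CPM, but 5 of the 611 cells, those with over 10% haemoglobin UMIs, held 98.2% to 99.3% of it in each library, and without them it was at 37.7, 47.5 and 94.8 CPM.

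At the edges of the rule the cells differed. The 7 cells with only 3 or 4 UMIs of the endothelial sum had 1330 CPM of Egfl7 against 1345 CPM in all members, and the macrophage gene Lyz2 was found in 1 of the 7. The 4 cells just outside with a sum of 2 had 234 CPM of Egfl7. Other excluded cells were nearer to the members. Egfl7 was at 966 CPM in 11 cells with a sum of 3 or more but no Pecam1, and at 923 CPM in 10 over the mural limit. It was at 1144 CPM in 20 cells with Sox10 and 1625 CPM in 4 with Ptprc. All cells outside the rule count among the other P1 cells below. On the side of the collagen limit, the 10 cells with 7 to 9 Col1a2 UMIs had 1201 CPM of Egfl7 and 1050 CPM of Col3a1, and the 11 cells with 10 to 14 had 1013 CPM of Egfl7 and 2014 CPM of Col3a1. In all, 65 cells passed every limit but that of Col1a2.

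Against the other P1 cells, 772 of 9510 genes (8.12%) were at least 2-fold higher in the endothelial cells of each library, with 10 CPM added to both levels, and 1016 (10.7%) were at least 2-fold lower. The median over all genes was -0.03 on the log2 scale. All 30 genes of the endothelial identity list were higher, with a median of 3.53. Among its transcription factors Erg was at 80.8, 78.8 and 83.6 CPM against 1.32 ± 0.17 CPM elsewhere, and Sox17, a factor of arterial and vessel growth, at 308 ± 35.4 CPM. Among the 30 genes furthest above were Aqp1, a water channel, at 1153, 1090 and 1022 CPM against 20.2 ± 4.16 CPM in the other cells, Ctla2a, an inhibitor of cathepsin proteases, at 591, 681 and 672 CPM, and Aplnr, the apelin receptor, at 446, 384 and 443 CPM.

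Genes of lipid handling were mostly higher or not called. Of 15 tested, 8 were higher and 1 was lower (median 1.22). Cd36, a fatty acid transporter, was at 930, 866 and 836 CPM against 45.7 ± 4.25 CPM elsewhere, and Scarb1, a lipoprotein receptor, at 368, 364 and 357 CPM. Lpl, whose enzyme is carried by Gpihbp1, was the 1 lower gene, at 13.9, 12.03 and 8.23 CPM against 124 ± 8.77 CPM. Fibroblasts held 179 CPM of it. An Lpl UMI was found in 4.79% of endothelial cells and 32.7% of fibroblasts.

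Barrier genes were mixed. Among 17 junction and adhesion genes 9 were higher and 1, Jam3, was lower (median 1.22). Among 14 barrier transporters 8 were higher and 2 were lower (median 1.37). The glucose transporter Slc2a1 was at 136, 105 and 108 CPM against 15.4 ± 0.91 CPM, and the drug efflux pump Abcb1a at 43.2, 45.1 and 45.6 CPM against 1.06 ± 0.44 CPM. Other transporters known from the adult barrier were near the floor, with Slco1a4, an organic anion carrier, at 5.57, 3.61 and 1.27 CPM and Mfsd2a, a lipid carrier, at 5.57, 3.01 and 3.80 CPM. Of 11 Wnt pathway genes 5 were higher and 2 lower, and the pathway targets Lef1 and Axin2 had 0.644 ± 0.048 and 1.90 ± 0.506 CPM.

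Genes of each vessel segment were found. The arterial list had 19 of 25 genes higher (median 2.21), the capillary list 13 of 18 (3.05) with 2 lower, the venous list 9 of 15 (1.32) with 1 lower, and the list of tip cell and angiogenesis genes 14 of 28 (0.92) with 2 lower. Tip cells lead new sprouts. Of their genes Apln, which encodes the ligand of Aplnr, was at 210, 206 and 218 CPM and Esm1 at 100, 114 and 127 CPM. The venous factor Nr2f2 was the venous gene that was lower, at 60.6, 51.7 and 75.4 CPM against 219 ± 5.05 CPM, with higher levels in mural cells (340 CPM) and fibroblasts (267 CPM). The collagens of the basement membrane Col4a1 (1756 ± 7.57 against 432 ± 4.39 CPM) and Col15a1 were among 5 of 15 basement membrane genes that were higher, and Fn1 was lower. No cell cycle gene was higher and 14 of 29 were lower (median -1.31). Of 14 genes of the imprinted growth list none was higher and 7 were lower (median -1.13). Among the 7 were Dlk1 at 72.4, 79.4 and 90.6 CPM against 4098 ± 53.5 CPM and Meg3 at 136, 98.0 and 76.0 CPM against 4700 ± 273 CPM. Of 17 MHC and interferon genes 6 were higher and 4 lower, and of 20 genes of the response to dissociation 1 was higher and 1 lower.

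The cells were not alike among themselves. The 10% of cells with the highest level of a gene, as UMIs per 10000 UMIs of the cell, held 20.8% to 21.5% of the level of Pecam1 and 19.95% to 21.3% of that of Egfl7 in the 3 libraries. For Cldn5 they held 28.2% to 31.8%, for Fabp4 35.4% to 41.1%, for Igfbp3 50.9% to 55.3%, for Gja4 64.0% to 66.8% and for Fbln5, an elastic fibre protein, 81.0% to 87.2%. Fbln5 RNA came mostly from few cells, while Egfl7 was found in 99.7% of cells. Pecam1 was required in every cell by the rule.

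Arterial cells were sought by the connexin genes Gja4 (connexin 37, ENSMUSG00000050234, chr4:127311421-127314039, minus strand) and Gja5 (connexin 40, chr3:96904693-97077416, plus strand). Cells with at least 2 UMIs of both together numbered 46, 54 and 54 in replicates 1, 2 and 3, which is 154 of 611 or 25.5% ± 2.49 (SD, n = 3). Gja5 was found in 17 of the 611 cells, so the group rests on Gja4. Gja4 was also found in 56.7% of mural cells. The 11 mural genes summed to 58.8, 63.1 and 39.4 CPM inside the group and 79.8, 81.7 and 381 CPM outside, and Acta2 alone was at 15.3, 21.0 and 12.4 CPM inside and 10.2, 6.74 and 115 CPM outside. The group was deeper, with a median of 8358.5, 8875 and 6847 UMIs per cell against 6379, 4927 and 6143, and the part of depth in the differences was not tested.

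Of 3356 genes at 50 CPM or more, 61 (1.82%) were at least 2-fold higher in the Gja4 cells of each library and 33 (0.983%) at least 2-fold lower. The highest were Stmn2, a stathmin family gene best known from neurons, Cytl1, Tmem178 and Fbln5. Stmn2 was at 678, 667 and 550 CPM inside the group and 74.7, 76.6 and 56.5 CPM outside. Fbln5 was at 593, 791 and 608 CPM inside and 57.3, 47.2 and 87.5 CPM outside, and Eln, which encodes elastin, at 1542, 2490 and 1831 CPM inside and 215, 197 and 342 CPM outside. The 3 values inside lay above the 3 outside for each of these genes, which were ranked by the library where the groups differed least, a choice that favours such separation. Igfbp3, which binds insulin-like growth factors, was at 2738, 2553 and 2984 CPM inside and 308, 563 and 445 CPM outside, and the chemokine Cxcl12 at 882, 1106 and 796 against 154, 170 and 115 CPM.

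Of 23 arterial genes 12 were higher and 1 lower (median 1.22 on the log2 scale, against 0.06 for all genes). They included the Notch ligand Jag1 (118, 181 and 135 CPM inside, 22.5, 22.7 and 34.7 CPM outside), the Notch target Hey1 (200, 189 and 212 against 57.3, 57.3 and 46.5 CPM), the netrin receptor Unc5b (488, 379 and 485 against 66.5, 111 and 81.2 CPM) and the kinase gene Bmx (87.1, 75.7 and 74.7 against 7.17, 11.8 and 7.29 CPM). Dll4, the Notch ligand of arteries and tip cells, was not called, with a log2 ratio of 0.80. The 1 lower arterial gene was Aqp1 at 460, 414 and 398 CPM against 1479, 1361 and 1296 CPM.

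On the other side, Aplnr was at 58.8, 73.6 and 24.9 CPM in the Gja4 cells and 627, 508 and 627 CPM in the rest, Apoe at 74.1, 94.6 and 135 CPM against 896, 417 and 632 CPM, and the leukocyte adhesion gene Icam1 at 54.5, 33.6 and 35.3 CPM against 212, 158 and 205 CPM. Of 16 capillary genes 4 were lower (Rgcc, Gpihbp1, Cd36 and Timp4) and 1, Cxcl12, was higher (median -1.10). Of 9 lipid genes 2 were lower (median -1.09) and none was higher, and 3 of 9 venous genes were lower (Aplnr, Icam1 and the semaphorin and VEGF co-receptor gene Nrp2). Gpihbp1 was at 1035, 1049 and 747 CPM inside the group and 2101, 2354 and 2265 CPM outside. Basement membrane genes differed in both directions, with Col18a1 and Fn1 higher and Col15a1 lower in the Gja4 cells.

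**Figure D2:**
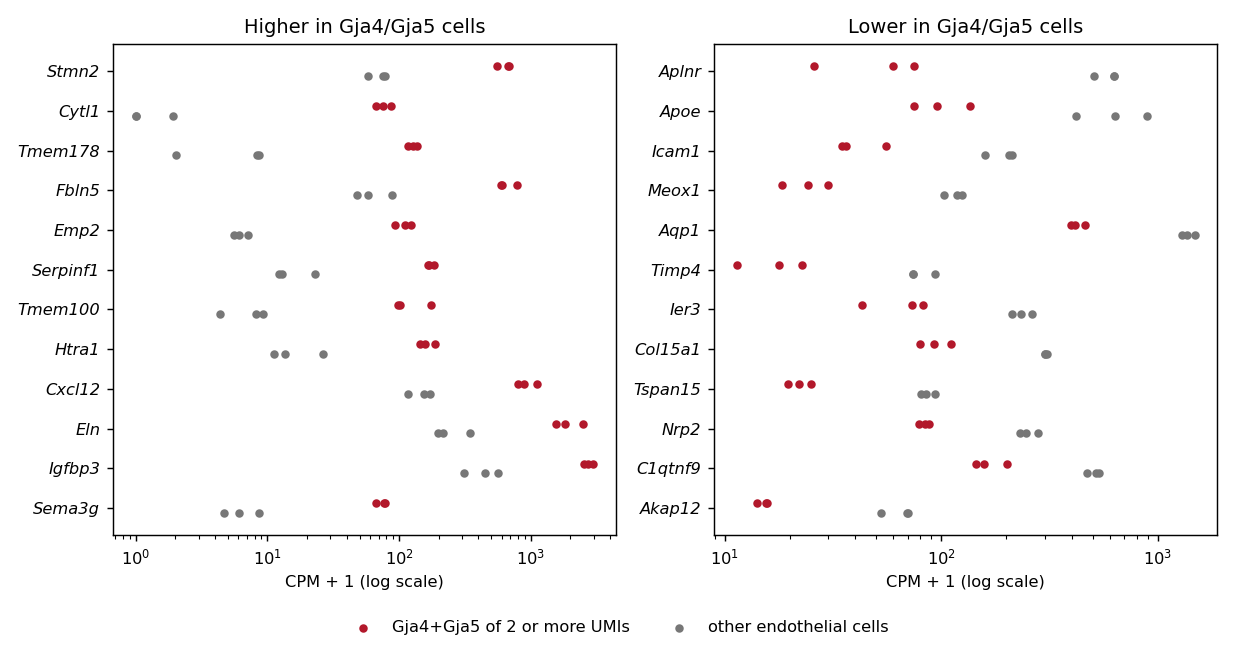
Level (CPM + 1, log scale) of the 12 genes furthest above and the 12 furthest below in P1 endothelial cells with at least 2 UMIs of Gja4 and Gja5 together (red) against the other endothelial cells (grey), with 1 point per library. The red and grey points of each gene do not overlap, from Stmn2 (678, 667 and 550 CPM in red) to Aplnr (58.8, 73.6 and 24.9 CPM in red). The genes were ranked by the library where the groups differed least, which favours such separation.

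The Cd300lg gene encodes an endothelial cell surface glycoprotein (ENSMUSG00000017309, chr11:102041509-102055620, plus strand) and was at 179, 166 and 143 CPM in endothelial cells, against 0.564 ± 0.977 CPM in mural cells and 0.450 ± 0.145 CPM in fibroblasts. After thinning to 2000 UMIs, which left out 5 cells, a UMI was found in 29.4%, 25.2% and 21.3% of endothelial cells of replicates 1, 2 and 3 (mean 25.3% ± 4.06). It was found in 0.107% of fibroblasts, the class that should lack the gene. Cells with more than 2 UMIs of Pecam1, Cldn5 and Cdh5 together had been left out of that class. Without thinning the shares were 50.4% and 0.328%, at a median of 6094 and 7017 UMIs per cell. A cell without a UMI is therefore not shown to lack the RNA.

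Between cells with and without a thinned Cd300lg UMI no gene of 3268 was at least 2-fold higher (0%) in each library and 15 (0.459%) were lower. Of 20 arterial genes tested 5 were lower (Mgp, Fbln5, Stmn2, Jag1 and Vegfc), and the other 10 were Eln, Ctsh, Tmem158, Tmem100, Htra1, Ptn, Fbn1, Fbln2, Fxyd6 and Igfbp3. Mgp, an inhibitor of calcification, was at 6.89, 7.54 and 13.9 CPM in cells with Cd300lg and 213, 413 and 279 CPM in those without. Eln was at 110, 90.4 and 69.7 against 870, 1100 and 958 CPM, and Fbln5 at 50.5, 35.2 and 24.4 against 306, 333 and 296 CPM. The genes furthest above did not reach 2-fold, with Rgcc, a regulator of the cell cycle that is known from capillaries, at 1182, 1264 and 1300 against 758, 814 and 769 CPM, and Aqp7, a glycerol channel, at 82.7, 121 and 108 against 58.0, 55.8 and 55.7 CPM. Without thinning, Cd300lg was found in 34.8%, 25.9% and 16.7% of Gja4 cells and in 62.1%, 56.2% and 58.1% of the others, although the Gja4 cells were deeper. Among thinned cells with Gpihbp1, 35.6%, 28.2% and 23.5% had Cd300lg, against 5.71%, 10.3% and 11.1% of those without Gpihbp1.

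Cldn5 was read as UMIs per 10000 UMIs of the cell, and the cells of each library were ranked by it into 3 groups of equal size (56, 79 and 67 cells). The highest groups were deeper in each library, with a median of 7028.5, 7050 and 6207 UMIs against 6397.5, 4853 and 5554, and the part of depth was not tested. The highest group held 39.6 to 43.9 and the lowest 4.86 to 5.79 Cldn5 UMIs per 10000. Of 3308 genes 24 (0.726%) were at least 2-fold higher in the highest group of each library and 9 (0.272%) lower. Of 23 arterial genes tested 6 were higher, and the other 18 of the 24 included Eln, Serpinf1, Emp2, Htra1, Tmem178, Egfl8 and 1 copy of the lymphatic chemokine Ccl21a. Fbln5 was at 505, 590 and 603 CPM in the highest group and 39.9, 47.8 and 37.8 CPM in the lowest, and Gja4 at 557, 448 and 613 against 77.4, 81.6 and 129 CPM. Of the Gja4 cells 26 of 46, 27 of 54 and 28 of 54 lay in the highest Cldn5 group, where they made up 46.4%, 34.2% and 41.8% of cells, against 12.5%, 10.1% and 14.9% of the lowest.

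Of 9 barrier transporters none was higher and 1 was lower in the highest group (median -0.75). Slc2a1 was at 154, 85.0 and 106 CPM in the highest and 127, 93.5 and 119 CPM in the lowest group, and the ranges overlapped. The amino acid transporter Slc7a5 was at 15.4, 35.3 and 27.0 CPM in the highest and 77.4, 97.5 and 109 CPM in the lowest group, and Car4, a carbonic anhydrase of capillaries, at 19.2, 52.9 and 32.8 against 174, 127 and 195 CPM.

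The same ranking was made at P60, where the highest groups held 68.2 to 90.3 and the lowest 1.67 to 2.24 Cldn5 UMIs per 10000, again with deeper cells in the highest groups (5665, 5871.5 and 5246 UMIs against 4508, 4704.5 and 3470). The 10 genes compared were picked after their values were seen, so no test is given. Slc2a1 differed by a log2 ratio of -0.01 ± 0.233 between the highest and lowest group at P1 and by 3.03 ± 0.519 at P60 (SD, n = 3 libraries each), where it was at 1835 ± 168 CPM against 224 ± 85.9 CPM. Slc7a5 went from -1.57 ± 0.287 to 4.16 ± 0.142 and Car4 from -2.01 ± 0.793 to 2.83 ± 0.549. Fbln5 had a ratio of 3.48 ± 0.177 at P1 and -1.51 ± 0.354 at P60, and Eln 2.60 ± 0.835 and -0.61 ± 0.124. Cd300lg lay on the low side at both ages, by -1.09 ± 0.289 and -2.88 ± 0.267. The arterial gene Gja4 lay on the high side at both ages, by 2.39 ± 0.277 at P1 and 0.94 ± 0.320 at P60, as did Mgp, by 3.20 ± 0.608 and 0.98 ± 0.231. Gpihbp1 lay on the low side at both. The Kdr ratio was -1.06 ± 0.130 and -1.28 ± 0.177, with overlap between the ages.

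**Figure D3:**
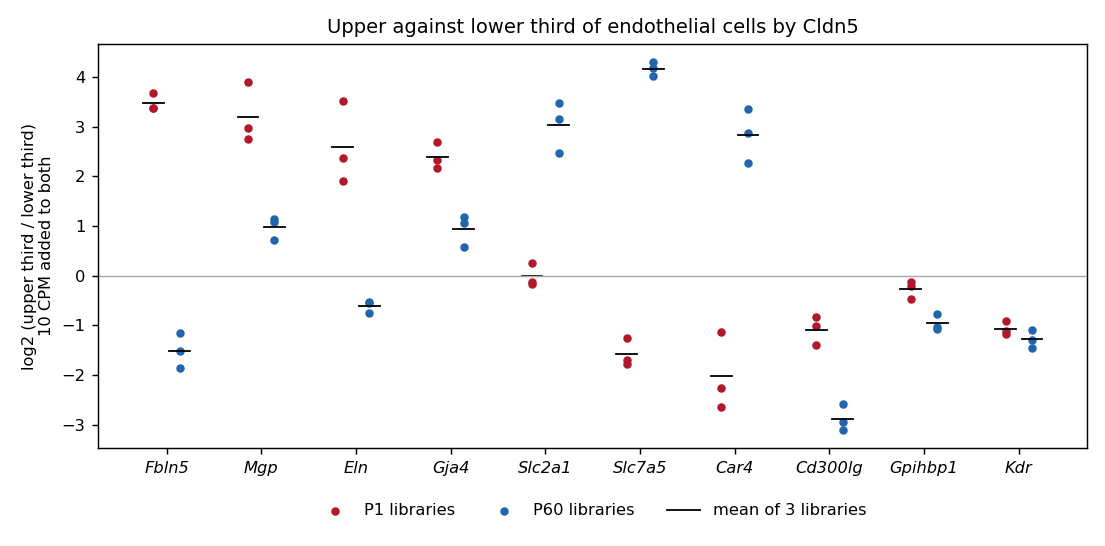
Difference in level (log2, 10 CPM added) between the endothelial cells in the upper and the lower of 3 equal groups by Cldn5, for 10 genes in each library of P1 (red) and P60 (blue), with the mean as a bar. Slc2a1 lies at -0.01 ± 0.233 at P1 and at 3.03 ± 0.519 at P60, and Fbln5, Eln, Slc7a5 and Car4 lie on opposite sides of 0 at the ages.

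Dividing cells were few. With at least 2 UMIs of the mitotic genes Mki67 and Top2a together there were 6, 13 and 6 cells, 25 of 611 in all. Of 3678 genes 118 (3.21%) were at least 2-fold higher in them in each library and 10 (0.272%) lower, 4 of them haemoglobin genes whose UMIs lay almost wholly in the 5 cells described above, and 27 of 28 cell cycle genes were higher. Lower calls outside haemoglobin lay near the counting floor in so few cells. Jkamp, for example, was at 16.7, 22.5 and 0 CPM in the dividing cells and 56.0, 63.4 and 65.0 CPM in the others. The replication factor gene Pclaf was at 333, 569 and 325 CPM in the dividing cells and 2.91, 1.31 and 9.85 CPM in the others. They were deeper, with a median of 9407.5, 9430 and 8444 UMIs, and the part of depth in their number was not tested. After thinning, at least 1 UMI of Mki67 or Top2a was in 4.29% ± 1.55 of endothelial cells at P1 and 0.814% ± 0.489 at P60, without overlap (p = 0.1 by a two-sided exact permutation test, which cannot give a smaller p with 3 libraries an age).

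The change from P1 to P60 was tested on UMIs summed over the cells that passed the rule in each library, with the 8 rule genes taken out. The edgeR quasi-likelihood test called 4113 of 10515 genes (39.1%) at an adjusted p under 0.05, 2183 higher at P60 (20.8%) and 1930 lower (18.4%), with a median log2 change of 0.02. In summed counts, a change in every cell and a change in the share of cells with a gene cannot be told apart. With no batch named in the labels, a batch effect and age cannot be told apart either. At P60 the cells carried more mural RNA (1492 to 2214 CPM over the list, 10.4% to 21.6% of its sum in mural cells) and fibroblast RNA (1298 to 1864 CPM), and less Schwann RNA (218 to 236 CPM). Immune genes summed to 155 to 287 CPM, within the P1 range. The part of this RNA in the changes below was not tested.

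Barrier transporters rose together. Of 21 tested 20 were called higher and none lower (median 2.32). Slc2a1 rose from 136, 105 and 108 CPM at P1 to 1192, 1115 and 1026 CPM at P60 (log2 change 3.25, SE 0.14, edgeR adjusted p = 1.7e-08). Abcb1a rose from 43.2, 45.1 and 45.6 to 540, 582 and 781 CPM (3.82, SE 0.16), Abcg2, another efflux pump, from 260, 298 and 281 to 1487, 1532 and 1184 CPM (2.32, SE 0.14), and Mfsd2a from 5.57, 3.01 and 3.80 to 295, 254 and 170 CPM (5.86, SE 0.30). Spock2, a matrix proteoglycan gene of the list, rose from 41.8, 37.9 and 40.5 to 906, 839 and 871 CPM (4.44, SE 0.13). Slco1a4 (ENSMUSG00000030237, chr6:141805440-141856199, minus strand) rose by 7.83 (SE 0.25). The only transporter not called was Abcc4 (log2 change 0.46, edgeR adjusted p = 0.10).

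Wnt pathway genes rose in 7 of 14 cases and none fell (median 0.71). Lef1 (ENSMUSG00000027985, chr3:131110471-131224356, plus strand, overlapping Gm42449), which encodes a nuclear partner of beta-catenin, had 3 UMIs in all P1 endothelial cells and 1164 at P60, which is a level 197 times as high (exact interval for counting error alone 67.1 to 955). The pathway target Axin2 rose from 1.39, 2.41 and 1.90 to 70.2, 56.0 and 80.7 CPM (log2 change 5.11, SE 0.29), and the factor Foxq1 had 1 UMI at P1 and 519 at P60 (263 times as high, interval 47.0 to 10405). The receptor gene Fzd4 (0.44, edgeR adjusted p = 0.052) and its partner Tspan12 were not called. Junction and adhesion genes rose in 10 and fell in 2 of 19 cases (median 0.63). Among them Tjp1, a scaffold of tight junctions, rose by 0.95 (SE 0.13) and the tricellular junction gene Lsr by 2.58 (SE 0.24), while Icam1 fell by 1.07 (SE 0.14).

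Genes of growing vessels fell. Of 28 tip cell and angiogenesis genes 21 fell and 2 rose (median -1.32). Apln fell from 210, 206 and 218 to 40.9, 55.7 and 18.2 CPM (a fall of -2.45, SE 0.28, at an edgeR adjusted p of 3.1e-05) and Aplnr from 446, 384 and 443 to 101, 71.5 and 74.3 CPM (-2.38, SE 0.15). Of 15 basement membrane genes 12 fell and 2 rose, the laminin genes Lamb2 and Lama5 (median -0.84), with Col4a1 going from 1757, 1763 and 1748 to 251, 270 and 323 CPM (-2.65, SE 0.12). Col4a1, Col4a2, Lamb1, Nid1, Nid2 and Sparc stand in both lists. Cell cycle genes fell in 21 of 24 cases and none rose (median -1.44). In the imprinted growth list 12 of 14 genes fell. The 1 that rose was Gpc3, an X-linked growth gene of the list that is not itself known as imprinted. Mest (ENSMUSG00000051855, chr6:30723547-30748465, plus strand, overlapping Gm27522, Gm27568 and Mir335) fell from 1300, 1160 and 1063 to 8.87, 10.1 and 5.74 CPM (-7.14, SE 0.20).

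**Figure D4:**
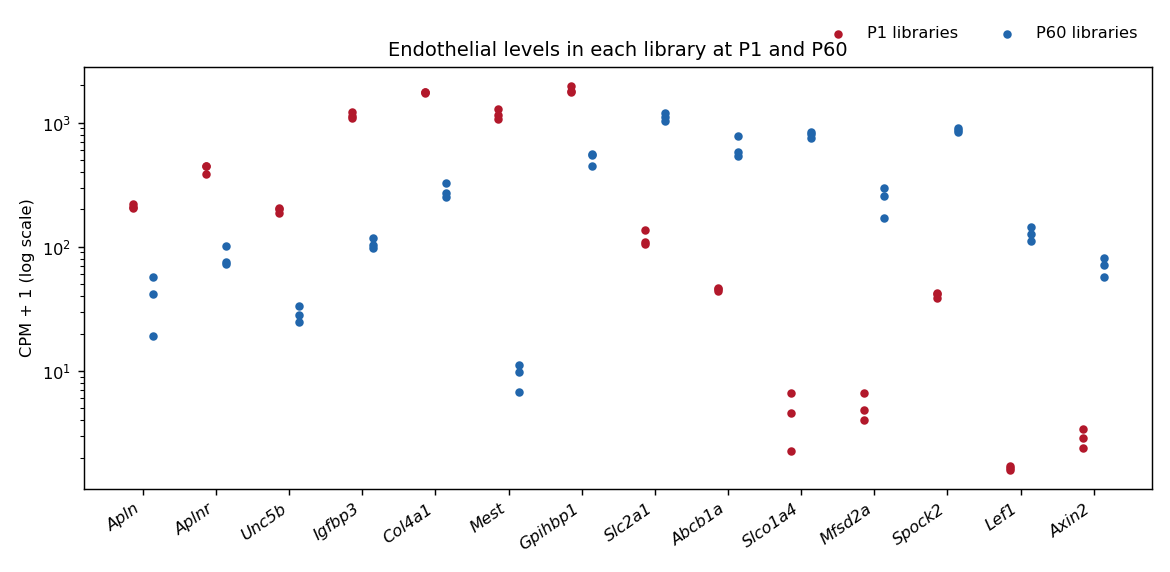
Level (CPM + 1, log scale) of 14 genes in the endothelial cells of each P1 (red) and P60 (blue) library. The P1 points lie above the P60 points for Apln, Aplnr, Unc5b, Igfbp3, Col4a1, Mest and Gpihbp1 and below them for Slc2a1, Abcb1a, Slco1a4, Mfsd2a, Spock2, Lef1 and Axin2. These 14 genes were picked for display, while 39.1% of all 10515 genes tested were called between the ages.

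The segment lists moved in different ways. Venous genes rose in 12 and fell in 2 of 17 cases (median 1.35), with von Willebrand factor (Vwf) going from 156, 147 and 162 to 404, 403 and 429 CPM (log2 change 1.404, SE 0.11) and Lrg1 from 20.9, 44.5 and 32.3 to 491, 517 and 411 CPM (3.84, SE 0.21). Capillary genes rose in 7 and fell in 6 of 18 (median -0.04). Car4 rose by 2.61 (SE 0.17) and Ly6c1 by 2.55 (SE 0.17), Gpihbp1 fell by 1.84 (SE 0.12) and Rgcc by 2.41 (SE 0.11). Cd300lg was at 203, 173 and 155 CPM at P60 (log2 change 0.12, SE 0.14, edgeR adjusted p = 0.55), and its thinned share of 25.3% ± 4.06 at P1 stood beside 25.8% ± 2.22 at P60 (p = 1, exact permutation test). The lipid list had 4 genes up and 5 down of 16 (median -0.26). Fabp4 (-0.19, edgeR adjusted p = 0.11) was not called. Lpl rose from 13.9, 12.03 and 8.23 to 60.9, 56.5 and 80.7 CPM.

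Arterial genes fell in 14 and rose in 10 of 27 cases (median -0.79). The thinned share of cells with at least 2 UMIs of Gja4 and Gja5 was 12.4% to 15.3% at P1 and 1.31% to 3.00% at P60, a difference of -11.2 points (exact permutation p = 0.1). With all cells that had 2 such UMIs before thinning left out at both ages (154 cells at P1 and 89 at P60), 12 of 26 arterial genes rose and 8 fell (median 0.19). The fall of Gja4 (-2.63) then became 0.046 (edgeR adjusted p = 0.92), that of Fbln5 (-1.45) became 0.16 (edgeR adjusted p = 0.57), and that of Stmn2 (-0.85) turned into a rise of 0.68 (edgeR adjusted p = 0.00562). This setting was added after seeing the data, and since cells were left out by Gja4, its own value follows from the choice. Bmx (2.22, SE 0.14) and Clu (5.05, SE 0.18) rose with all cells counted, and Igfbp3 fell by 3.45 (SE 0.13).

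Of 30 endothelial identity genes 9 rose, 12 fell and 9 were not called (median -0.18). Egfl7 was at 1317, 1393 and 1320 CPM at P1 and 1448, 1446 and 1025 CPM at P60 (log2 change -0.04, SE 0.14, edgeR adjusted p = 0.83). The VEGF receptor genes Flt1 and Kdr moved apart, by 1.29 and -0.70. Genes of MHC and the interferon response rose in 19 of 20 cases and none fell (median 2.62), as did H2-K1, from 103, 93.2 and 103 to 1093, 1040 and 914 CPM (3.34, SE 0.13). Several H2 genes are near-identical copies, among which reads can be split, so their single values are uncertain. Of 21 genes of the response to dissociation 6 rose and 7 fell (median -0.21).

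**Figure D5:**
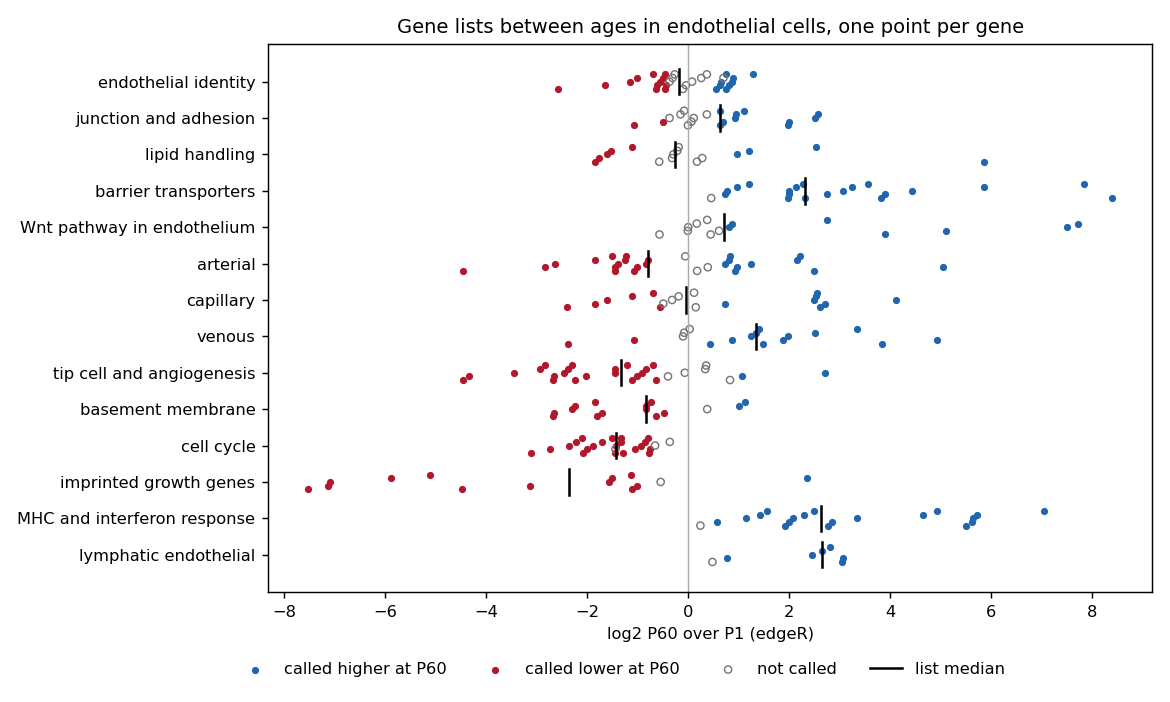
Log2 change from P1 to P60 of the tested genes of 14 lists in endothelial cells (edgeR), with 1 point per gene, blue for called higher, red for called lower, open for not called and a bar at the list median. Barrier transporters (median 2.32) and MHC genes (2.62) lie to the right, and the tip cell (-1.32), cell cycle (-1.44) and imprinted growth (-2.36) lists to the left.

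The largest rises by the rule for named genes included Degs2, a gene of sphingolipid synthesis. It had no UMIs in the P1 endothelial cells and 1557 in those of P60 (at least 263-fold higher, taking a floor of 3 UMIs over the group). Others were the oxidase gene Fmo2 with 2 and 2618 UMIs (663 times as high, interval 183 to 5479), and Sfrp5, a secreted Wnt binding protein. Sfrp5 was at 2.09, 0.601 and 1.90 CPM and then 371, 697 and 352 CPM (log2 change 8.25, SE 0.43). Retnla, known as a product of macrophages, had no UMIs in the P1 endothelial cells and 269, 96.5 and 75.0 CPM in those of P60 replicates 1, 2 and 3. Among the falls named by that rule, next to Mest and Dlk1 (-7.09), were Tmem255a (-6.60), the developmental factor Sox11 (-6.12), H19 (-5.88) and Plagl1 (-5.11). Dlk1 stood at 72.4 to 90.6 CPM in P1 endothelial cells against 4098 CPM in the other cells, beside fibroblast RNA at 2.04% to 2.38% of its level in fibroblasts, and the part of such RNA in the fall of Dlk1 was not tested. Sox11 went from 112, 132 and 125 to 0.386, 1.09 and 3.71 CPM.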

How the data were processed

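Cells of sciatic nerve were measured in 3 P1 and 3 P60 libraries. The authors deposited raw UMI counts per gene and barcode, made with Cell Ranger 2.0.2 on GRCm38.p5 per the labels, with Cell Ranger's own calling of cells. No normalization had been applied. From these counts, barcodes with 500 to 5000 genes were kept, classed by the rule and summed per library. The members, lists and tests were chosen with earlier results of these data known. No doublet caller was run. The rule limits markers of other classes without removing all doublets, since it allows 2 mural and 9 Col1a2 UMIs, and leaving out the top 5% of cells by UMIs was an alternative. Libraries shared 13 to 32 barcodes per pair, against 16.3 to 28.5 for barcodes drawn at random, and pairs lay on both sides of their own expected number. P1 replicate 1 and P60 replicate 1 shared the most, 32 against 16.3, with no endothelial barcode among them.

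Ages were compared on summed counts with edgeR 4.0.16 in R 4.3.3 (TMM, filterByExpr, quasi-likelihood test, Benjamini-Hochberg adjustment), without the 8 rule genes. The libraries are independent runs on pooled animals, so p-values measure the spread between runs. On simulated counts for 10515 genes in this comparison, 89.8% of 88 genes changed by a log2 of 1 and 100% of 112 changed by 2 were found, with 11 false calls. The simulation gave every gene the same spread between libraries, which was set beforehand and not estimated from these data. Changed genes were drawn only from those with higher counts and were far fewer than the genes called here. It therefore checks that the code works and does not give the recovery in these data. Other comparisons are descriptions: a gene was called when it differed at least 2-fold in each P1 library with 10 CPM added, among genes at 10 CPM in either side, or 50 CPM for groups inside the endothelial cells. Shares were compared between ages at 2000 UMIs a cell with exact permutation tests (scipy 1.17.1). Intervals and floors cover counting error only. Named genes were the 6 markers, list members, the 30 furthest above other P1 cells at 100 CPM or more, the 12 furthest rises and falls with age at 50 CPM or more without overlap, and the 12 furthest each way in each split; Eln, Apoe and others of the splits come from the last. The genes compared by Cldn5 at both ages and the promoters printed were picked after their values were seen. Coordinates are from GENCODE M21 on GRCm38, which held 99.6% of the gene IDs, and promoters from RefSeq on GRCm38.p6. Counting on strand is not given in the sources used here, so overlapping genes are named beside their values. Alternatives were DESeq2 1.42.0, library size scaling, no filter, other rules and thinning, and leaving out each library.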

Additional observations from a re-analysis of the deposited data

Results flagged for a closer look

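In 4 genes the difference between the endothelial cells highest and lowest in Cldn5 had opposite directions at the ages, with all 3 P1 libraries on one side of 0 and all 3 P60 libraries on the other. For Fbln5 the log2 ratio was 3.37, 3.38 and 3.68 at P1 and -1.86, -1.52 and -1.15 at P60, and the P60 mean minus the P1 mean was -4.98. For Eln this difference between the ages was -3.21. It was 4.84 for Car4, a carbonic anhydrase of capillaries, and 5.73 for the amino acid transporter Slc7a5. The genes were picked after their values were seen, and the difference was not tested.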

How the results depend on the processing

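The share of P1 cells that passed was 5.18%, 3.85% under a stricter rule (6 or more endothelial UMIs, fewer than 3 of Col1a2) and 5.74% with no Col1a2 limit, which was added after seeing the data. The share with Gja4 and Gja5 (25.5%) was 32.8% at 1 or more UMIs, 20.5% at 3 or more and 13.4% after thinning to 2000 UMIs, and that with Cd300lg (25.3%) was 12.4% at 1000 UMIs, 42.4% at 4000 and 50.4% without thinning. Under the stricter rule the genes lower in a split numbered 27 for Cd300lg (main 15), 20 for Cldn5 (main 9) and 30 for dividing cells (main 10). Leaving out 1 library gave 0 to 1 genes higher and 15 to 28 lower with Cd300lg (28 without P1 replicate 1), 13 to 25 lower with high Cldn5 (25 without replicate 2, 15 without replicate 3), and 161 to 185 higher (185 without replicate 1) and 31 to 71 lower in dividing cells (39, 71 and 31 without replicates 1, 2 and 3). These counts need the 2-fold in fewer libraries. Genes called between the ages ranged from 3226 to 4705 without 1 library (4705 without P60 replicate 3), with 1787 to 2435 higher and 1439 to 2270 lower, and were 3354 by DESeq2 and 4100 by library size alone. With the arterial-gene cells left out, added after seeing the data, Fbln5 turned to 0.16, Gja4 to 0.046 and Stmn2 to 0.68, and with no Col1a2 limit Itm2a turned to -0.31 (edgeR adjusted p = 0.210), where the cause was not tested. The 244 named genes called between the ages had 4344 values under the alternatives. Of these 4210 kept direction and side of the threshold, 130 lost the call and 4 reversed. Genes not called in the main fit were not followed, and values missing under an alternative were not counted. Of 120 values of genes against the other P1 cells 118 moved by less than the spread between libraries. In the splits 274 of 300 values did so and 26 moved by more, with 49 of 75 results the same throughout. Most of these values left out 1 library, and a mean of 3 libraries cannot then move by more than their spread. Only the stricter rule could move a value. Under it 26 of 75 split results moved, and 2 of 30 against the other P1 cells. Replicates of equal number were not treated as pairs in the main fit. Correlations between their deviations were 0.0193, 0.0260 and 0.0284, and those of unequal number ran from -0.0481 to 0.0275. P1 replicate 2 went best with P60 replicate 1 (0.0275). Correlations this small over 3 libraries an age can neither show nor exclude pairing. With a replicate block 4251 genes were called.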

Other observations

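Lymphatic genes were read in the P1 endothelial cells by 3 genes. Flt4, the VEGF-C receptor that some blood vessels also express, had a UMI in 122 of 611 cells, Prox1, the factor that sets lymphatic identity, in 30 and Lyve1, a hyaluronan receptor, in 12. At least 1 of the 3 was found in 143 cells and at least 2 in 6, 1 and 7 cells of replicates 1, 2 and 3. After thinning to 2000 UMIs, which was added after seeing the data, the share with at least 2 was 1.59% ± 1.02 at P1 and 4.72% ± 0.541 at P60, without overlap (p = 0.1 by an exact permutation test, the smallest possible here). The thinned share with at least 1 was 8.35% ± 4.03 and 10.5% ± 0.254 (p = 0.4, exact permutation test), and before thinning 23.5% ± 2.50 and 18.8% ± 2.14. Of 7 genes of the longer lymphatic list tested between the ages 6 rose and none fell (median log2 change 2.64). Mmrn1, which encodes a multimerin, rose from 17.4, 6.01 and 26.6 to 140, 89.4 and 192 CPM, a log2 change of 3.07, while Flt4 had a change of 0.48 (edgeR adjusted p = 0.11).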
